A study of Mus musculus with 20 samples.

Results

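The descending and the ascending thoracic aorta were compared in mice treated with β-aminopropionitrile (BAPN), using 10 of the 20 libraries of the series: 5 labelled descending aorta and BAPN, and 5 labelled ascending aorta and BAPN. The members were chosen by the letters for region and treatment in the sample titles. All animals were of the inbred strain C57BL/6J, with no transgene or engineered allele in the labels, and treatment lasted 1 week. The other 10 libraries, 5 for each region, came from animals on water and are used here to set the regional difference under water beside that under BAPN, to share the estimate of the spread, and for a division of the libraries described below. Dose, route, age and sex are not given in the labels used here. Nor do the labels say whether libraries came from separate animals or whether both regions of an animal were sampled, and p-values therefore reflect only the spread among these samples, which may be technical. Each library holds RNA of whole aortic tissue, in which fewer cells of a type and less RNA per cell cannot be told apart.

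The media of the ascending aorta is built by smooth muscle cells from the neural crest and the second heart field, whereas that of the descending thoracic aorta is built by cells from paraxial mesoderm, and regional sets of homeobox and other transcription factors persist in the adult wall. BAPN blocks the lysyl oxidases, which link elastin and fibrillar collagen into stable fibres, and in mice it is used to provoke aneurysm and dissection of the thoracic aorta. Elastin, collagens and their binding proteins carry the load of the wall, and smooth muscle cells both make that matrix and contract within it.

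Totals ran from 15744725 to 18914126 counts in the 5 ascending BAPN libraries and from 17314236 to 21544953 in the 5 descending ones. Levels below are in CPM, read counts scaled to a common library total. A difference is the log2 ratio of descending over ascending aorta given with its standard error (SE). The term called is used for genes whose p-value by edgeR's quasi-likelihood test was under 0.05 after Benjamini-Hochberg adjustment over the 15543 genes tested. The label of the tissue was checked on contractile genes of smooth muscle: the summed level of 30 such genes was 39478 to 42945 CPM in ascending and 40159 to 43736 CPM in descending BAPN libraries. On the first principal component of the 10 libraries, with 69.8% of the variance, the regions lay apart. A second division runs through the series: the levels of 33 pseudogenes with -ps in the symbol split the 20 libraries into a set with higher and a set with lower levels. All 5 ascending BAPN libraries lie in the higher set and all 5 descending ones in the lower set, so that within the BAPN libraries region and set cannot be told apart. Each water group holds libraries of both sets, and a fit with a term for the set over all 20 libraries is therefore given where it ends a call, turns a direction or moves a count by more than 1.5 times ("with the set term"). The set effect in that fit comes from the water libraries alone. The fit can be less precise for the regional difference under BAPN, so a lost call need not mean a smaller difference.

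The regions differed in 4626 genes, which is 29.8% of those tested and the share against which each list below is to be read. Of these, 2206 (14.2%) were higher and 2420 (15.6%) lower in the descending aorta, the shares for the counts by direction in each list. In any list, members that passed the filter only through the counts of 1 region had to differ, so list counts are a description. Most calls were small: 57.8% of them were under 1.5-fold. Among calls of at least 2-fold the balance was uneven, with 247 genes (1.59%) higher and 1045 (6.72%) lower in the descending aorta, and at 4-fold and more there were 77 higher and 508 lower. The libraries of the regions did not overlap in 3330 genes (21.4%). With the set term the calls numbered 2755 (17.7%), 1131 higher (7.28%) and 1624 lower (10.4%), and 2590 of the 4626 kept their call and direction. Of the 1292 calls of at least 2-fold, 1032 were also called in that direction, at any size, with the set term. In all, that fit called 229 genes (1.47%) at least 2-fold higher and 844 (5.43%) at least 2-fold lower.

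Hox genes encode homeobox factors that give cells their position along the body axis, and members of 3 of the 4 clusters were higher in the descending aorta. Of 39 Hox genes 23 were tested, and the other 16 held 0 to 8 counts each over the 10 BAPN libraries. Of the 23, 18 were called higher and 0 lower (14.2% and 15.6% of all genes tested), and 17 of them had libraries that did not overlap (21.4% of all genes). The median log2 difference of the 23 was 5.47, or 5.45 with the 9 genes of very low ascending counts placed at their bound or ratio, against 0.0088 for all genes tested. Genes that passed the filter only through their descending counts had to differ, so these counts are a description.

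The promoters of Hoxa5 and Hoxb8, both higher in the descending aorta, are shown as examples of members of both clusters whose libraries did not overlap. Each is the stretch of 250 bases before the annotated start (RefSeq, GRCm38.p6), 5′ to 3′ on the gene's strand, at chr6:52204588-52204837 (minus strand) for Hoxa5 and chr11:96281655-96281904 (plus strand) for Hoxb8. Capitals mark every match, on either strand, to 5 motifs.
Hoxa5: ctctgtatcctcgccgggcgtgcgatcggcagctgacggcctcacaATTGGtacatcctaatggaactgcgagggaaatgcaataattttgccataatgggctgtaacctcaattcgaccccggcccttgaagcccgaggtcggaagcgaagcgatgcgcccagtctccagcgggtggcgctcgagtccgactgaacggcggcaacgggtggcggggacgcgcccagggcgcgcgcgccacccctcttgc
Hoxb8: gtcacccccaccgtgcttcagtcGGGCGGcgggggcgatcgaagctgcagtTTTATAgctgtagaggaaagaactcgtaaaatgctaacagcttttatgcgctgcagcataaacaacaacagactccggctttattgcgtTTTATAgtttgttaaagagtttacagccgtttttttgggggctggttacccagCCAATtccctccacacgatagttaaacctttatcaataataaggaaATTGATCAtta
The HOX-PBX motif was searched as TGATNNAT and occurs in 7.69% of 32841 promoter windows of this length. The GATA motif was searched as AGATAA and occurs in 9.99% of the same windows. The TATA motif was searched as TATAAA and occurs in 12.4% of them. The GC box was searched as GGGCGG, present in 32.7% of the windows, and the CCAAT motif, spelled by its name, in 33.9% of them. No match printed here overlaps another. The Hoxa5 window held 1 CCAAT match and no other of these motifs, with 28 CpG dinucleotides against a median of 6 over all windows. The Hoxb8 window held 1 HOX-PBX match, 2 TATA matches, 1 GC box and 1 CCAAT match, with 12 CpG. A match is a match of letters only.

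Within the HoxA cluster the regional difference began at Hoxa5. The anterior genes Hoxa2 (log2 0.17, SE 0.16) and Hoxa4 (0.22, SE 0.14) were not called. Hoxa3 was called higher at 0.33 (SE 0.12, adjusted p = 0.0303 by edgeR), but with overlapping libraries: 37.0, 30.9, 34.5, 27.1 and 31.9 CPM in ascending BAPN libraries 1 to 5 and 47.4, 45.8, 42.7, 33.3 and 34.5 CPM in descending BAPN libraries 1 to 5. Its call was lost without ascending BAPN library 2, 4 or 5 or descending BAPN library 1, 2 or 3 (adjusted p = 0.0539 to 0.0966) and with the set term (0.09, adjusted p = 0.78).

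Hoxa5 stood at 5.18, 4.40, 5.22, 4.52 and 3.61 CPM in the ascending libraries and at 31.9, 30.9, 31.3, 30.6 and 29.8 CPM in the descending ones. No ascending library came near the lowest descending one, and the log2 difference was 2.74 (SE 0.11, adjusted p = 1.57e-16 by edgeR). Hoxa7 was at 0, 0.0611, 0.104, 0.496 and 0.249 CPM against 43.6, 38.9, 43.2, 38.6 and 41.4 CPM, a log2 difference of 7.77 (SE 0.21). The ascending level of Hoxa7 thus rested on a handful of reads in 4 of 5 libraries. Hoxa9 (5.39, SE 0.35) and Hoxa10 (5.46, SE 0.53) were higher as well, and Hoxa6, with 0 counts over the ascending libraries and 292 over the descending ones, was at least 95.3-fold higher. Ascending BAPN library 4 held 9 of the 16 ascending counts of Hoxa7, whose difference was 8.59 without it, and all 5 of those of Hoxa10.

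All 8 tested HoxB genes were called higher, with a break between Hoxb4 and Hoxb5. The anterior genes Hoxb2 (0.84, SE 0.13), Hoxb3 (1.28, SE 0.14) and Hoxb4 (0.99, SE 0.11) were present in both regions. Hoxb4, for instance, ran from 8.53 to 10.2 CPM in ascending and from 15.2 to 21.1 CPM in descending libraries. From Hoxb5 on, the ascending libraries held almost no reads: Hoxb5 differed by 6.78 (SE 0.26).

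Hoxb6 was at 0, 0.122, 0, 0 and 0 CPM in ascending BAPN libraries 1 to 5 and at 33.9, 33.9, 30.7, 27.9 and 28.6 CPM in the descending ones. That is 2 counts against 2786, a ratio of 1364 (95% interval 377 to 11267, counting error only). The ratios were 447 (153 to 2169) for Hoxb7, 972 (269 to 8029) for Hoxb8 and 293 (80.7 to 2423) for Hoxb9, each from 2 or 3 ascending counts. Of the HoxC genes all 4 tested were called higher: Hoxc4 with a ratio of 92.7 (31.4 to 452), Hoxc6 with 628 (112 to 24826), and Hoxc5 and Hoxc8, both at 0 counts in the ascending libraries, at least 43.7-fold and 110.0-fold higher.

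Of the HoxD genes neither tested member was called, Hoxd8 at 0.48 (SE 0.27) and Hoxd9 at -0.56 (SE 0.34), both at low levels in each region. Of the 23 tested Hox genes, 10 overlap exons of another annotated gene, 7 of them on the opposite strand (Hoxa7 with Hoxaas3, Hoxb5 with Hoxb5os), and whether strand was used in counting is not given in the sources used here, so reads of such partners cannot be told apart.

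**Figure D1:**
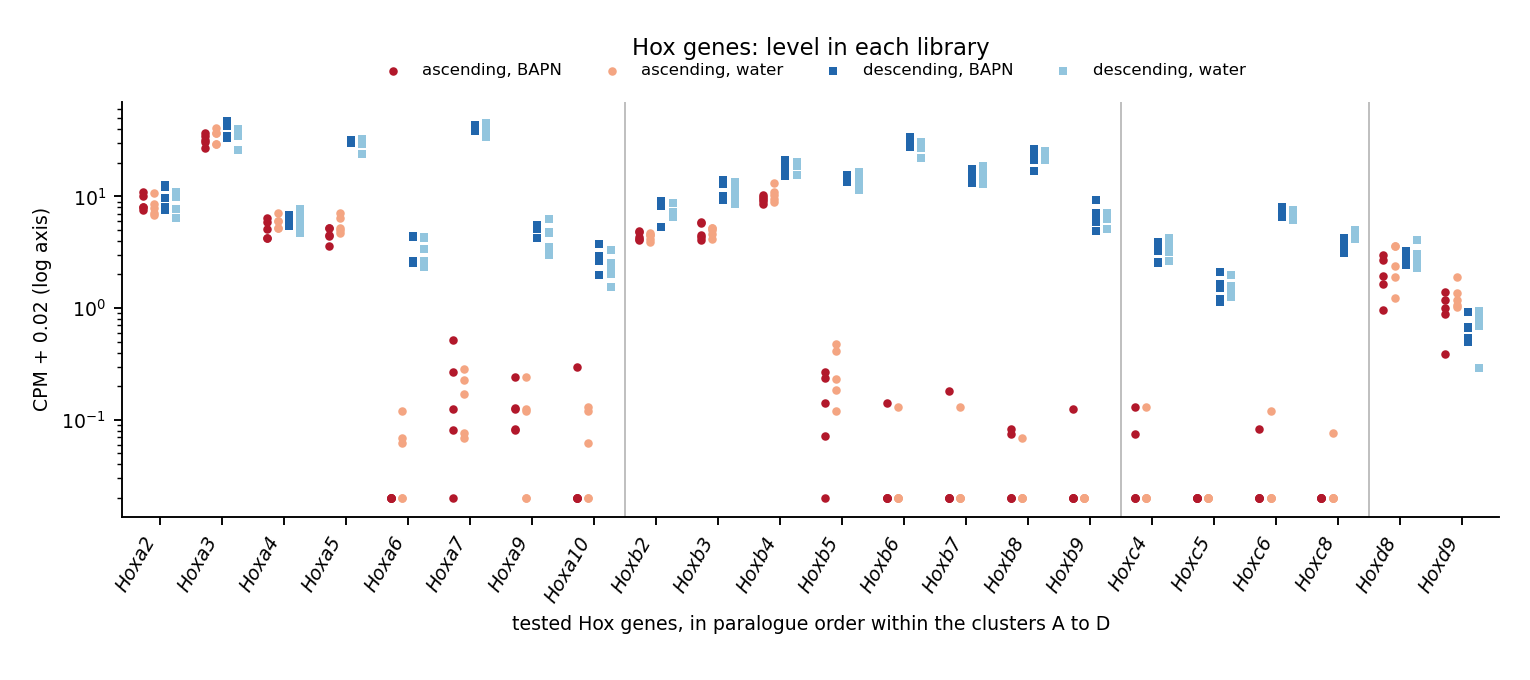
Level of 22 tested Hox genes in each of the 20 libraries, as CPM plus 0.02 on a log axis, with the genes in order along clusters A to D and grey lines between clusters. Circles are ascending and squares descending libraries, dark for BAPN and light for water. Hoxa2 to Hoxa4 and the 2 HoxD genes lie together in both regions, whereas from Hoxa5 and Hoxb2 on the squares lie above the circles, and for Hoxb6 to Hoxc8 most circles are at or near 0.

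Transcription factors of the heart and outflow tract were on balance lower in the descending aorta. Of 22 tested, 3 were called higher and 14 lower (14.2% and 15.6% of all genes tested), the median log2 difference was -2.88 (0.0088 for all genes), and 17 had libraries that did not overlap (21.4% of all genes). Members that passed the filter only through their ascending counts had to differ, so these counts too are a description. With the set term 1 was higher and 13 lower. Nkx2-6 and Irx4 were among those that did not pass the filter.

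Gata4, a zinc finger factor of the developing heart, was at 44.1, 61.0, 56.5, 58.7 and 46.1 CPM in ascending BAPN libraries 1 to 5 and at 0.280, 0.0596, 0.234, 0.115 and 0.0952 CPM in the descending ones. In the descending libraries it was thus almost absent (log2 -8.36, SE 0.21, adjusted p = 3.02e-20 by edgeR). Hand2, a basic helix-loop-helix factor of the right ventricle and outflow tract, was at 55.8, 59.0, 56.4, 64.8 and 56.4 CPM against 1.18, 0.775, 1.11, 0.746 and 1.52 CPM (-5.74, SE 0.13). Its antisense neighbour Hand2os1 moved with it at -9.21 (SE 0.21).

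Tbx20, a T-box factor of the heart, was at 145, 176, 161, 166 and 129.5 CPM in the ascending libraries and at 7.18, 6.14, 6.503, 6.83 and 7.81 CPM in the descending ones. Unlike Gata4 it kept a measurable level in each descending library (-4.49, SE 0.086). Of the other T-box genes of this list, lower values were those of Tbx5 (-5.18, SE 0.54), Tbx3 (-2.85, SE 0.38) and Tbx2 (-1.55, SE 0.087). Gata5 (-5.93, SE 0.35), the epicardial factors Tcf21 (-5.40, SE 0.15) and Wt1 (-5.59, SE 0.34), and the Iroquois genes Irx3 (-1.40, SE 0.19), Irx5 (-3.26, SE 0.46) and Irx1 (-2.91, SE 0.65) were lower too. Irx1 lost its call with the set term (-2.25, adjusted p = 0.068). Where descending reads were few, 1 library could hold most of them: descending BAPN library 3 held 5 of the 7 counts of Gata5, library 4 held 7 of the 10 of Tbx5, and library 2 held 3 of the 5 of Irx1. Irx5 was at -4.11 without descending BAPN library 1, which held 8 of its 14 counts. Nkx2-5 and Hand1, both at 0 counts over the descending libraries, were at least 92.6-fold and 55.8-fold lower.

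Not every factor of the list followed. Gata6, which smooth muscle itself uses, was at 158, 151, 154, 124 and 133 CPM in the ascending and at 160.3, 141, 154, 127 and 148 CPM in the descending libraries, with overlapping ranges and a log2 difference of 0.021 (SE 0.076, adjusted p = 0.878). The outflow tract factors Isl1 (-0.23, SE 0.14) and Tbx1 (0.19, SE 0.13) were not called either, though Tbx1 was called without ascending BAPN library 1 (adjusted p = 0.0324). The 3 members called higher, Foxc1 (0.28, SE 0.053), Foxc2 (0.36, SE 0.072) and Mef2c (0.23, SE 0.062), were small, and the Foxc genes lost their call with the set term (0.13 and 0.18).

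The promoters of Hand2 and Tbx20, lower in the descending aorta, and of Pax1, described next and higher there, are given in the same form. They lie at chr8:57320733-57320982 (plus strand), chr9:24774304-24774553 (minus strand) and chr2:147364744-147364993 (plus strand) on GRCm38.p6 (RefSeq), and capitals mark the same 5 motifs.
Hand2: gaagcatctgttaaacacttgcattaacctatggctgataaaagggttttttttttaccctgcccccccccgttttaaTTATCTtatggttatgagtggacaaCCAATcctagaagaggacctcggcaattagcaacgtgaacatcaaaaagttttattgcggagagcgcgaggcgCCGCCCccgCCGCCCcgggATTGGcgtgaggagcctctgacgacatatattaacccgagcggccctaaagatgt
Tbx20: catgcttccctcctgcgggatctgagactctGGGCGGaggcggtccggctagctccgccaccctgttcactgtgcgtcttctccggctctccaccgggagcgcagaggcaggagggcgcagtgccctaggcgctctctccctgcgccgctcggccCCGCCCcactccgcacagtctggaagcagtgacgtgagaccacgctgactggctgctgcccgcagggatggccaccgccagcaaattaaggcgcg
Pax1: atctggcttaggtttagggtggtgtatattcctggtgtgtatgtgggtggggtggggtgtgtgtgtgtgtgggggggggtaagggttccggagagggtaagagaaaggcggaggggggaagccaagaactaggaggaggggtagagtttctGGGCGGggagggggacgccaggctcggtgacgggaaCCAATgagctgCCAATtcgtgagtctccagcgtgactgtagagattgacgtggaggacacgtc
Hand2 held 1 GATA, 2 GC box and 2 CCAAT matches, Tbx20 held 2 GC boxes, and Pax1 held 1 GC box and 2 CCAAT matches. The HOX-PBX motif was found in none of the 3 windows.

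Factors of paraxial and trunk mesoderm went both ways: of 16 tested, 7 were called higher and 6 lower (14.2% and 15.6% of all genes), with a median of 0.21, and under the stricter filter, which tests fewer genes, 3 were lower. Pax1, a factor of the ventral somite, was at 0.108, 0.0611, 0.0522, 0.386 and 0.0622 CPM in ascending BAPN libraries 1 to 5 and at 22.8, 22.4, 20.3, 20.3 and 20.1 CPM in the descending ones. The ascending libraries held few reads of it (7.21, SE 0.28, adjusted p = 1.57e-16 by edgeR), and the difference was 8.08 without ascending BAPN library 4. Its paralogue Pax9 (1.46, SE 0.23), Meox2 (0.76, SE 0.12), Tbx18 (0.70, SE 0.064), Nr2f2 (0.40, SE 0.070) and Osr1 (0.27, SE 0.073) were also called higher, and Osr1 lost its call with the set term (0.16, adjusted p = 0.33).

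Meox1, a somite homeobox gene and the partner of Meox2, went against it: 22.1, 25.2, 25.6, 24.99 and 19.4 CPM in the ascending libraries and 1.29, 1.43, 1.05, 1.95 and 0.857 CPM in the descending ones (-4.17, SE 0.15). Osr2 (-5.88, SE 0.37) likewise was lower where its paralogue Osr1 was higher. Nkx3-2 (-2.10, SE 0.44) was lower. Sim2 (-3.58, SE 0.71, with 4 descending counts in all) and Tbx15 (-0.47, SE 0.16) were lower, the latter not with the set term (adjusted p = 0.35) nor without a filter on low counts (0.0971), nor without ascending BAPN library 2 or descending BAPN library 1, 2 or 3 (0.0589 to 0.0690). Zic1, with 39 counts against 2, was lower by a ratio of 19.9 (5.16 to 170.3).

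Of 18 neural crest and pharyngeal factors 5 were called higher and 9 lower (14.2% and 15.6% of all genes tested), with a median of -0.60. With the set term 2 were higher and 8 lower. Members that passed the filter only through their ascending counts had to differ. Sox9, the cartilage and neural crest factor (-2.90, SE 0.14), Msx1 (-1.65, SE 0.094), Tfap2a (-3.98, SE 0.48), Six2 (-2.50, SE 0.31), Msx2 (-3.57, SE 0.68) and the Schwann cell and melanocyte factor Sox10 (-1.17, SE 0.23) were lower, and Alx1, with 84 counts against 3, was lower by a ratio of 28.6 (9.46 to 142). Prrx1, a mesenchymal homeobox factor (0.54, SE 0.041), was higher. Twist1 (0.21, SE 0.055), Snai2 (0.34, SE 0.11) and Eya1 (1.07, SE 0.38), also called higher, lost their call with the set term. Their values with it were 0.11, 0.26 and 1.37 (adjusted p = 0.38, 0.33 and 0.073 by edgeR), so that of Eya1 was not smaller. The lower call of Dlx6 (-0.96, SE 0.30) was lost too, at -0.83 with the term (adjusted p = 0.19 by edgeR). Single libraries also decided some of these calls. Snai2 lost its call without ascending BAPN library 3 or 4 or descending BAPN library 1 or 5 (adjusted p = 0.0581 to 0.0885) and with the 10 BAPN libraries alone (0.0667), and Dlx6 without descending BAPN library 5 (0.0515). Eya1 lost it without ascending BAPN library 2, 4 or 5 or descending BAPN library 1, 3, 4 or 5 (0.0566 to 0.0948). The list had 3 members higher without ascending BAPN library 4 or descending BAPN library 1 or 5, and descending BAPN library 1 held 3 of the 4 descending counts of Msx2.

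**Figure D2:**
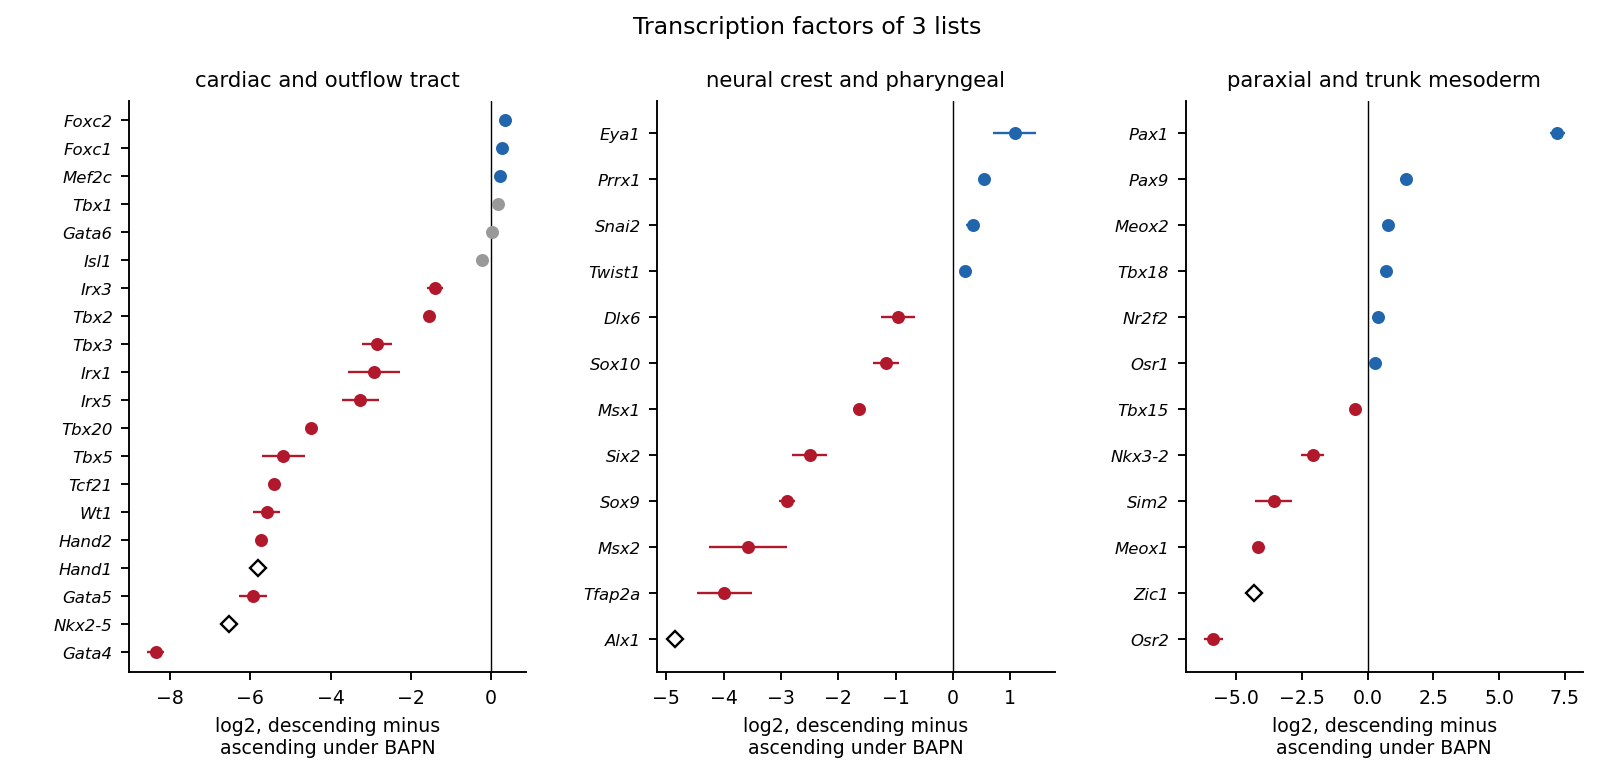
Log2 difference, descending minus ascending aorta under BAPN, of the members named here of 3 transcription factor lists, with bars for the SE. Blue points were called higher, red points called lower and grey points not called, and open diamonds are genes with 0 to 3 counts in a group, placed at their bound or ratio. The cardiac list reaches -8.36 (Gata4) and the paraxial list runs from -5.88 (Osr2) to 7.21 (Pax1).

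Beside these factors, genes of heart muscle and of the surface mesothelium moved the same way. Of 19 tested cardiomyocyte genes all 19 were called lower (15.6% of all genes), with a median of -6.27, and their summed level was 1026.5 to 1900.6 CPM in ascending and 84.5 to 97.96 CPM in descending BAPN libraries. Of the 20 genes of the list Nppb was at 0 in the descending BAPN libraries and none was at 0 in the ascending ones. Any member that passed the filter only through its ascending counts had to differ, so the count of calls is a description. Myh6, the atrial myosin heavy chain, was at 365, 232, 288, 426 and 330.1 CPM against 1.29, 0.715, 1.88, 0.746 and 0.904 CPM (-8.21, SE 0.34), and cardiac troponin Tnnt2 differed by -6.27 (SE 0.18). Ascending library 4 held the highest and library 2 the lowest level of Myh6.

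All 14 mesothelial genes were called lower as well (15.6% of all genes), with a median of -4.89. Their summed levels were 413 to 526 CPM in ascending against 42.6 to 61.1 CPM in descending BAPN libraries, and no member was at 0 in either region. Here too, any member that passed the filter only through its ascending counts had to differ. Upk3b, a uroplakin of mesothelium, was at 144, 114, 105, 119 and 112 CPM in the ascending and at 3.87, 2.38, 2.29, 5.05 and 0.476 CPM in the descending libraries (-5.43, SE 0.28). The list also holds Wt1, Rspo1 and Efemp1, which are named elsewhere in these results. What part heart muscle and mesothelium have in the lower level of Gata4, Hand2, Tbx20, Tcf21 and the other factors was not tested.

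Cartilage genes had 14 of 18 called lower and 0 higher (15.6% and 14.2% of all genes tested). The median was -2.49, with sums of 536 to 745 CPM in ascending against 350 to 394 CPM in descending libraries. Of those tested, 3 held 0 to 3 counts in a region, and members that passed the filter only through their ascending counts had to differ. Col2a1 and Matn1 were at 0 in the descending BAPN libraries, and Matn1 was also at 0 in the ascending ones. The list includes Sox9, Comp, Chad, Epyc and Col11a2. With the counts of 62 genes of heart and skeletal muscle, fat and blood left out before scaling, 4598 genes were called against 4626. Called genes were among those left out, and other transcripts of these tissues stayed in. What part these tissues have in the remaining calls was therefore not tested.

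**Figure D3:**
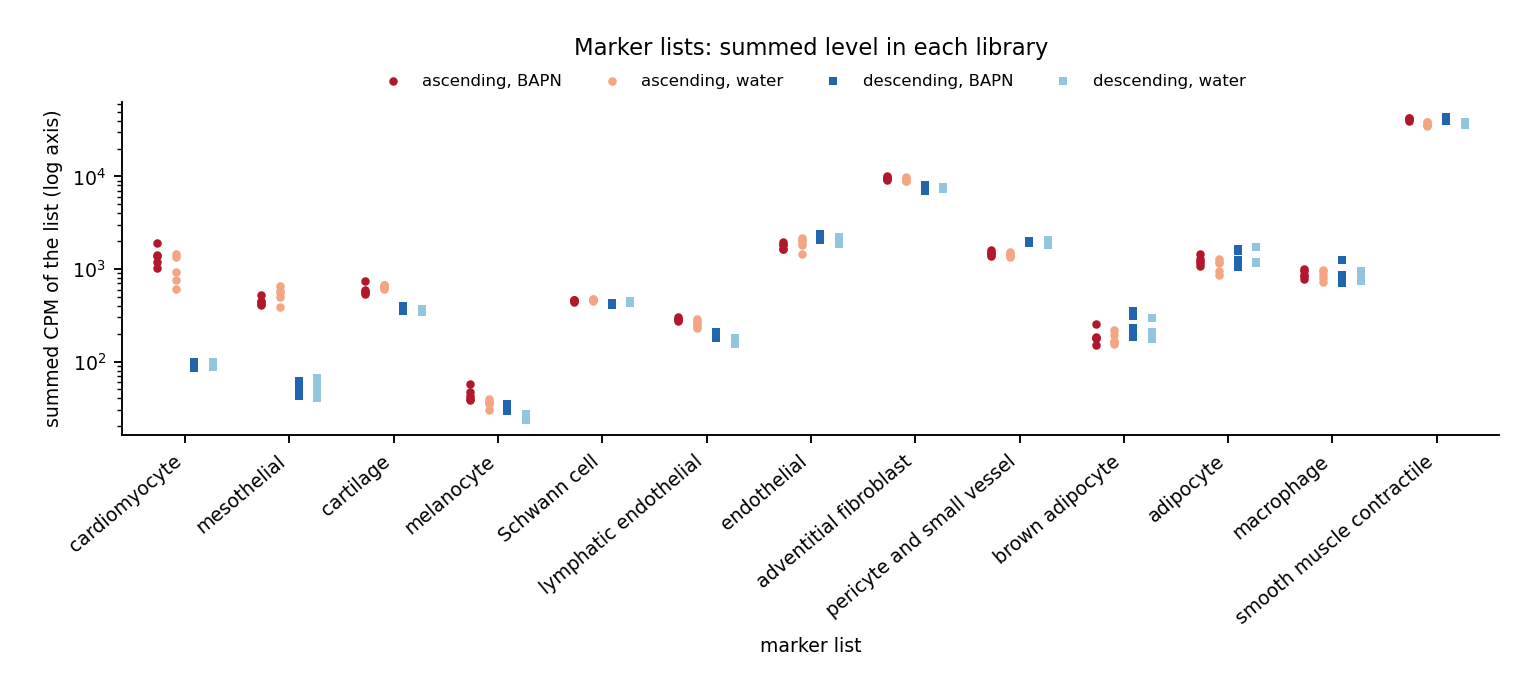
Summed CPM of 13 marker lists in each of the 20 libraries, on a log axis. Circles are ascending and squares descending libraries, dark for BAPN and light for water. Cardiomyocyte and mesothelial sums are higher in all ascending than in all descending libraries, pericyte sums are higher in the descending ones, and the smooth muscle contractile sums of all groups lie close together.

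Retinoic acid, made from vitamin A by aldehyde dehydrogenases and cleared by CYP26 enzymes, patterns the outflow tract. Of 19 retinoic acid genes 4 were called higher and 9 lower (1 and 8 with the set term; 2 higher without descending BAPN library 1), with a median of -0.19. The synthetic enzymes Aldh1a1 (-1.51, SE 0.059) and Aldh1a2 were lower, the latter at 16.9, 14.8, 11.2, 12.4 and 9.15 CPM against 0.841, 1.67, 0.469, 1.26 and 0.381 CPM (-3.83, SE 0.29). The clearing enzyme Cyp26a1 was lower with them (-6.23, SE 0.55), as were the response genes Rarres1 (-1.03, SE 0.12) and Rarres2 (-0.33, SE 0.043). Rbp4, the retinol carrier, was higher (0.48, SE 0.049).

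Secreted Wnt ligands and modulators had 3 members higher and 11 lower of 21, with a median of -0.63, and the same counts with the set term. Sfrp4, a secreted Wnt-binding protein, was higher: 11.3, 13.1, 13.3, 12.5 and 12.6 CPM in the ascending and 130.5, 98.2, 79.8, 102 and 101 CPM in the descending libraries, a log2 difference of 3.03 (SE 0.10, adjusted p = 7.72e-18 by edgeR). Other Wnt antagonists were lower. Wif1 was at 112, 129.8, 134, 142 and 115 CPM against 25.3, 29.5, 27.8, 26.4 and 28.9 CPM (-2.20, SE 0.067), Frzb differed by -0.93 (SE 0.077) and Dkk3 by -0.49 (SE 0.038). The ligand Wnt4 (-3.97, SE 0.28) and the amplifier Rspo1 (-3.47, SE 0.25) were lower too, with libraries that did not overlap.

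Of 26 BMP genes 7 were called in each direction. Bmp3, a ligand that dampens BMP signals (-1.53, SE 0.082), and the extracellular modulator Bmper (-1.07, SE 0.11) were lower, and Bmp5, with 109 counts against 2, was lower by a ratio of 55.7 (15.04 to 466). Gdf10, related to Bmp3, was higher (0.73, SE 0.048), as were the endothelial receptor Acvrl1 (0.44, SE 0.051) and the secreted Fstl1 (0.35, SE 0.035). TGF-β genes had 3 higher and 8 lower of 22: the co-receptor Eng (-0.46, SE 0.063), the signal transducer Smad3 (-0.42, SE 0.060) and the latent binding proteins Ltbp2 (-0.45, SE 0.060) and Ltbp4 (-0.18, SE 0.044) were lower, and the repressor Ski (0.30, SE 0.042) and the TGF-β-induced matrix gene Tgfbi (0.93, SE 0.059) were higher. Inhbb, an activin subunit, was lower (-1.49, SE 0.13).

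FGF genes had 4 members higher and 10 lower of 22 (2 and 10 with the set term), with a median of -0.28. The ligand Fgf9 was lower (-4.04, SE 0.34), and so were feedback and target genes of the pathway, Spry1 (-0.66, SE 0.069), Etv1 (-0.69, SE 0.096) and Etv5 (-1.01, SE 0.10). Its receptors split, with Fgfr2 higher (0.72, SE 0.049) and Fgfr3 lower (-0.81, SE 0.11). Notch genes had 4 in each direction of 18 (2 higher and 3 lower with the set term): Notch4, an endothelial receptor, was higher (1.14, SE 0.11), Notch1 (-0.77, SE 0.091) and the ligand Jag2 (-0.99, SE 0.13) were lower, and the smooth muscle receptor Notch3 lay at 91.1 CPM in both regions (-0.0012, SE 0.059).

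Elastin, the chains of type I and III collagen, and 3 of the 5 lysyl oxidases, the enzymes that BAPN inhibits, had higher transcript levels in the descending aorta, whereas other matrix genes went either way. Eln, which encodes elastin, was at 18671, 20972, 20648, 20093 and 19658 CPM in ascending BAPN libraries 1 to 5 and at 39101, 44694, 43714, 42641 and 33609.6 CPM in the descending ones. The lowest descending library lay above the highest ascending one, and the log2 difference was 1.03 (SE 0.067, adjusted p = 4.13e-12 by edgeR). Lox, the main lysyl oxidase of the vessel wall, was at 833, 915, 906, 861 and 834 CPM against 1300.5, 1365, 1286, 1462 and 1414 CPM (0.65, SE 0.051, adjusted p = 1.28e-10). Of the 5 lysyl oxidases 3 were called, all higher: besides Lox these were Loxl1, which acts on tropoelastin (0.33, SE 0.046), and Loxl3 (0.38, SE 0.046). Loxl2 (-0.028, SE 0.056) and Loxl4 (0.20, SE 0.10) were not called.

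The elastic fibre list as a whole was mixed, with 8 higher and 6 lower of 19 (5 and 6 with the set term) and a median of 0.036. Mfap5, a microfibril glycoprotein (0.46, SE 0.042), and Fbn1, the main fibrillin of microfibrils (0.17, SE 0.045), were higher, Fbn1 with overlapping libraries and not with the set term (0.14, adjusted p = 0.16). Lower were Fbln1, an elastin-binding fibulin, at 397, 321, 347, 324 and 346 CPM against 158, 147, 139, 128 and 154 CPM (-1.26, SE 0.056), the fibulin-like Efemp1 (-2.34, SE 0.13), the microfibril-binding Adamtsl2 (-2.36, SE 0.080) and the developmental fibrillin Fbn2 (-3.34, SE 0.26). Of the genes tied to heritable thoracic aortic disease 10 were higher and 7 lower of 28, among them several of those just named.

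Of 20 fibrillar and associated collagens 12 were called higher and 5 lower, with a median of 0.23. Col1a1, a chain of type I collagen, was at 4587, 3827, 4065, 4025 and 4037 CPM in the ascending libraries and at 8484, 7901, 7066, 6994 and 7657 CPM in the descending ones, without overlap (0.89, SE 0.057, adjusted p = 2.33e-12 by edgeR). Col1a2 (0.63, SE 0.041), Col3a1 (0.45, SE 0.044), and the type VI chains Col6a2 (0.59, SE 0.047) and Col6a3 (0.71, SE 0.050) were higher with it. The cartilage collagen Col11a2 (-2.59, SE 0.16) and the subendothelial Col8a1 (-2.60, SE 0.15) were lower.

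Genes that fold, modify and trim collagen moved with it: 17 of 24 were called higher and 1 lower (14 and 1 with the set term), with a median of 0.29. They included Sparc, a collagen-binding glycoprotein (0.73, SE 0.036), the procollagen C-proteinase enhancer Pcolce2 (0.66, SE 0.045), the prolyl hydroxylase P3h1 (0.43, SE 0.041), the galactosyltransferase Colgalt1 (0.42, SE 0.040) and the procollagen proteinase Bmp1 (0.35, SE 0.038). The member that was lower was Tll1, a tolloid proteinase related to Bmp1 and required in the heart (-4.04, SE 0.37). Genes of the basement membrane split, 6 higher and 8 lower of 22 (1 and 8 with the set term). The chain Col4a5 was higher (0.57, SE 0.048), Col4a1 was higher but not with the set term (0.30, SE 0.054; 0.15, adjusted p = 0.11), and Col4a3 (-0.33, SE 0.053), the laminin chains Lamc3 (-1.81, SE 0.071) and Lamb1 (-0.70, SE 0.088), and the nidogen Nid2 (-0.43, SE 0.080) were lower.

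Proteoglycans went against the collagens they bind, with 4 higher and 15 lower of 24 (2 and 11 with the set term) and a median of -0.67. Dcn (decorin), which coats collagen fibrils, was at 1968, 2006, 1923, 2105 and 1967 CPM in the ascending libraries and at 1146, 1091, 951, 1109.6 and 1200.1 CPM in the descending ones (-0.86, SE 0.053). Lum (lumican, -0.96, SE 0.074) and Aspn (asporin, -0.81, SE 0.055) were lower by a like amount. Larger differences were those of Epyc (-5.44, SE 0.22) and Chad (-3.21, SE 0.22), both also in the cartilage list, and of Prg4, the lubricin of joints and serous surfaces (-4.37, SE 0.36).

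Matricellular genes, whose products act on cells rather than bear load, had 8 higher and 9 lower of 24. Tnc (tenascin C) was at 55.5, 57.9, 64.3, 68.5 and 61.4 CPM in ascending BAPN libraries 1 to 5 and at 257, 256, 253, 287 and 243 CPM in the descending ones, with every descending library far above the highest ascending one (2.07, SE 0.066, adjusted p = 2.29e-18 by edgeR). Fn1 (fibronectin) was higher too (0.90, SE 0.048). Ccn3, which restrains smooth muscle growth, was at 2109, 2331, 2463, 2451 and 2266 CPM against 859, 851, 967, 949.8 and 887 CPM (-1.36, SE 0.048). Sparcl1 (-1.65, SE 0.047), Thbs4 (-6.33, SE 0.34), Comp (-2.38, SE 0.15) and Spp1 (osteopontin, -4.19, SE 0.28) were lower as well.

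Matrix proteases and their inhibitors had 11 higher and 9 lower of 29 (7 and 9 with the set term). The protease inhibitor Serpine2 (0.84, SE 0.041), the membrane-bound Mmp17 (0.82, SE 0.044) and the collagen-cleaving cathepsin Ctsk (0.89, SE 0.057) were higher. The metalloproteinase inhibitor Timp3 (-0.54, SE 0.050), the aggrecanase Adamts5 (-0.53, SE 0.045) and the plasminogen activator Plat (-0.59, SE 0.048) were lower.

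**Figure D4:**
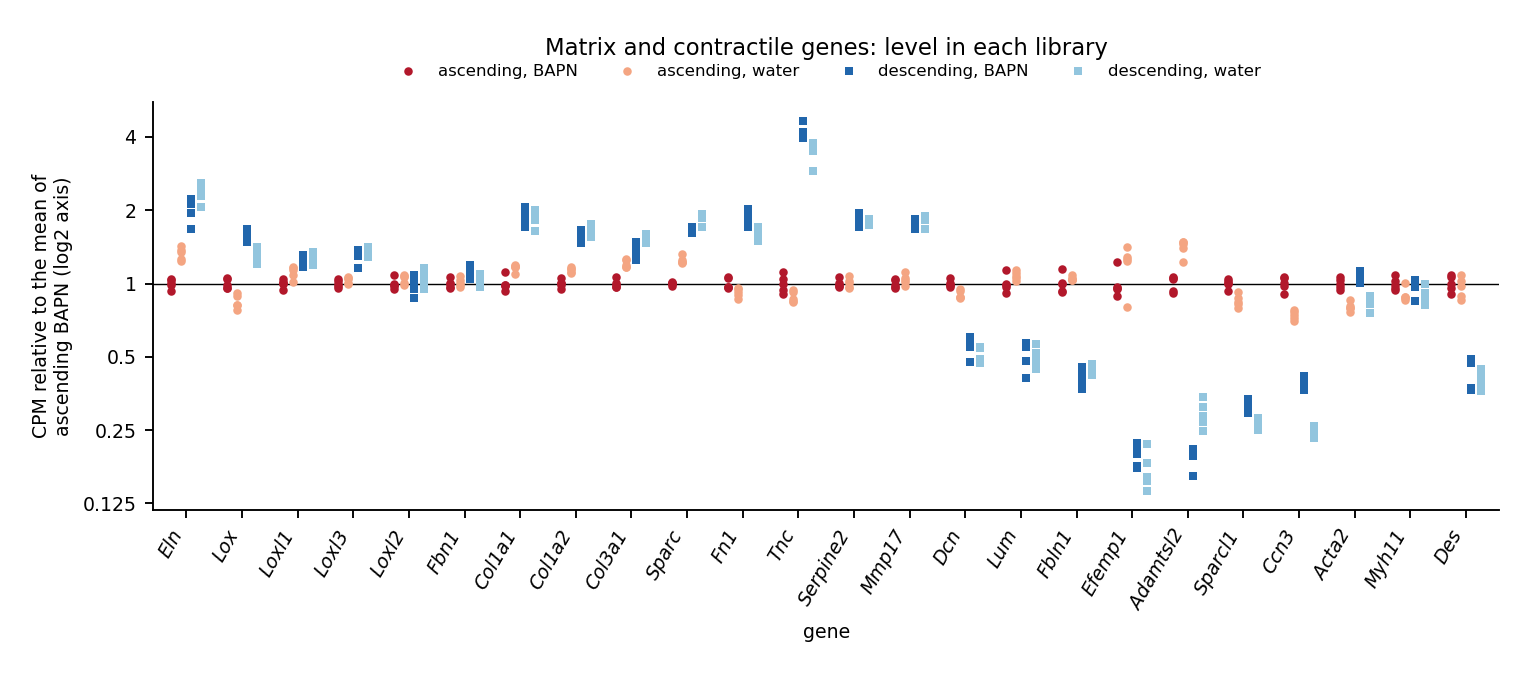
Level of 24 matrix and contractile genes in each of the 20 libraries, as CPM divided by that gene's mean over the 5 ascending BAPN libraries, on a log2 axis with a line at 1. Circles are ascending and squares descending libraries, dark for BAPN and light for water. Eln, Lox, Col1a1 and Tnc lie above the line in the descending libraries, Dcn, Fbln1, Sparcl1 and Ccn3 below it, and Loxl2, Acta2 and Myh11 close to it.

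The contractile genes of smooth muscle differed little on balance. Of 30 tested 7 were called higher and 7 lower (3 and 8 with the set term; 4 higher without ascending BAPN library 1), with a median of -0.0039. Acta2, smooth muscle actin, was at 13444, 14227, 14701, 15175 and 13812 CPM in the ascending and at 14454, 14314, 15147, 16033 and 15472 CPM in the descending libraries, with overlapping ranges (0.080, SE 0.045, adjusted p = 0.204). Myh11, smooth muscle myosin, was not called either (-0.054, SE 0.057, adjusted p = 0.528). Among those called were Des (desmin), at 186, 205, 218, 224 and 198 CPM against 75.5, 76.7, 101, 96.9 and 77.0 CPM (-1.27, SE 0.081), Sorbs2 (-1.07, SE 0.062), the γ-actin Actg2 (0.45, SE 0.062), the myosin phosphatase subunit Ppp1r12b (0.26, SE 0.040) and the tropomyosin Tpm1 (-0.16, SE 0.040). Pln (-5.11, SE 0.27) and Casq2 (-6.18, SE 0.38) were lower, and heart muscle, whose genes were lower in the same libraries, also uses both; its part in these differences was not tested.

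Markers of modulated smooth muscle had 2 higher and 11 lower of 20, with a median of -0.25. The list shares Fn1, Lum, Sox9, Spp1 and Tcf21 with those above, and Tnfrsf11b (osteoprotegerin) was lower at -1.23 (SE 0.10). Ion channels had 5 higher and 8 lower of 27 (3 and 7 with the set term). The vascular KATP channel subunits Kcnj8 (0.62, SE 0.074) and Abcc9 (0.58, SE 0.055) and the large-conductance potassium channel Kcnma1 (0.52, SE 0.072) were higher, and the calcium channels Cacna1d (-0.87, SE 0.096) and Cacna1h (-1.70, SE 0.19) and the potassium channel Kcnd3 (-0.73, SE 0.078) were lower.

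Receptors for vasoactive agents carried some of the larger differences. Of 25 adrenergic and other vasoactive receptors 12 were called higher and 6 lower, with a median of 0.24. Adra2a, an α2-adrenergic receptor, was at 0.756, 1.22, 0.836, 1.43 and 1.49 CPM in the ascending and at 20.7, 19.2, 27.5, 21.8 and 23.99 CPM in the descending libraries (4.31, SE 0.16, adjusted p = 6.66e-17 by edgeR). Its relative Adra2b went the other way, with 110 counts against 2 and a ratio of 56.2 (15.2 to 469.7) lower. The vasopressin receptor Avpr1a (3.23, SE 0.27) and the ATP-gated channel P2rx1 (1.09, SE 0.083) were higher, and the β1-adrenergic receptor Adrb1 (-1.77, SE 0.19) and the prostaglandin receptor Ptgfr (-1.24, SE 0.14) were lower.

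Genes of the angiotensin, endothelin and natriuretic peptide systems had 6 higher and 10 lower of 19, with a median of -0.32. Renin, Ren1, was lower (-5.29, SE 0.35), as was a subunit of the nitric oxide receptor, Gucy1a1 (-0.48, SE 0.049). The natriuretic peptide receptor Npr1 (0.70, SE 0.037), the endothelin gene Edn1 (0.85, SE 0.10) and Edn3 (2.87, SE 0.32) were higher. Nppc, with 78 counts in the ascending and 0 in the descending libraries, was at least 26.6-fold lower.

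Axon guidance genes, which also position vessels and nerves, had 9 higher and 8 lower of 29. Epha3, a receptor for ephrins, was at 16.5, 16.1, 19.6, 19.6 and 20.04 CPM in the ascending and at 110.5, 100.4, 93.2, 99.6 and 109 CPM in the descending libraries (2.48, SE 0.069, adjusted p = 1.59e-19 by edgeR), while its relative Epha7 was lower (-2.43, SE 0.13). The secreted repellent Sema3a was higher (2.20, SE 0.10), and the receptors Robo1 (-1.57, SE 0.11) and Unc5b (-1.12, SE 0.070) and the transmembrane Sema6a (-1.48, SE 0.11) were lower.

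Integrins and focal adhesion genes had 11 higher and 7 lower of 31 (3 and 5 with the set term). Itga8 (0.36, SE 0.048) and Itga9 (0.47, SE 0.037), chains of smooth muscle integrins, were higher, and Itga6 (-1.86, SE 0.16), Itgb8 (-1.61, SE 0.11) and Itga4 (-0.80, SE 0.086) were lower. Of 21 targets of YAP and TAZ, coactivators that respond to mechanical load, 6 were called higher and 4 lower (3 and 3 with the set term), among them tissue factor F3 (1.17, SE 0.080) and Ankrd1, which heart muscle also makes (-3.01, SE 0.24). Foxf2, a forkhead factor on the same list, was higher (4.27, SE 0.52; 5.05 without ascending BAPN library 1).

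Among the genes of at least 5 CPM with the largest differences, those not yet described were higher in the descending aorta for C1qtnf3, a secreted C1q-like protein (4.40, SE 0.16), the homeobox gene Nkx2-3 (4.12, SE 0.23) and the transcriptional coactivator Eya2 (3.81, SE 0.17). On the other side stood cardiac genes, such as the regulatory and essential myosin light chains Myl7 (-8.11, SE 0.88; not called by limma-voom, adjusted p = 0.0543) and Myl3 (-9.03, SE 0.48) and myoglobin, Mb (-8.17, SE 0.47), with Ckmt2, the mitochondrial creatine kinase of muscle, at a ratio of 659 (182 to 5449.9) from 1291 counts against 2. Without descending BAPN library 4, Myl7 was at -8.87, Myl3 at -9.80 and Mb at -8.76. The melanocyte gene Dct, at 0 counts in the descending libraries, was at least 360.5-fold lower.

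Cell-state programmes are given with and without the set term, with which the share of all genes called went from 14.2% to 7.28% higher and from 15.6% to 10.4% lower. Cholesterol synthesis genes had 15 higher and 0 lower of 23, with a median of 0.35, but 4 and 0 with the set term. The epoxidase Sqle (0.77, SE 0.097) was among those that kept their call. Of 22 interferon response genes 0 were higher and 10 lower (0 and 5 with the set term; 16 lower without descending BAPN library 2), with a median of -0.59. Of them Isg15 (-1.34, SE 0.20) and Oasl2 (-1.39, SE 0.21) had libraries that did not overlap.

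Cell cycle genes had 5 higher and 0 lower of 29 (1 and 0 with the set term), so that the share higher was near the 14.2% of all genes. The mitotic kinase Aurka was the 1 that stayed called, at 0.73 (SE 0.18) and 0.80 with the set term (adjusted p = 0.0235). Genes of the unfolded protein response had 7 higher and 1 lower of 25, but 1 and 1 with the set term. The higher count was 2 to 4 without ascending BAPN library 1, 2, 3 or 5 or descending BAPN library 1, 4 or 5, and 3 or 4 with either other scaling, without or with a stricter filter and with the 10 BAPN libraries alone. Their differences were small, as in the chaperone Calr (0.15, SE 0.041; not called with the set term, adjusted p = 0.53), Selenos, which helps clear misfolded proteins (0.18, SE 0.050), and the stress sensor Ern1, the member that was lower (-0.22, SE 0.062). Clock genes had 3 in each direction of 19, near the shares of all genes (1 and 1 with the set term; 1 higher without ascending BAPN library 1, 4 or 5 or descending BAPN library 3, or with upper-quartile scaling), with Rora higher (0.43, SE 0.048) and Bhlhe40 lower (-0.65, SE 0.092).

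Of 13 mitochondrially encoded genes 5 were called lower and 0 higher. All 5 lost their call with the set term, under which 1 other was called higher and 0 lower. mt-Co2, a subunit of cytochrome oxidase, was at 47.2, 54.4, 42.9, 56.6 and 56.4 CPM in the ascending and at 19.8, 28.2, 21.6, 21.8 and 23.9 CPM in the descending libraries, without overlap (-1.16, SE 0.24, adjusted p = 0.000388 by edgeR). In the water groups, which hold libraries of both sets, it ran from 21.6 to 56.8 CPM in ascending and from 23.6 to 60.7 CPM in descending libraries, and with the set term the difference was -0.12 (adjusted p = 0.71). mt-Atp6 went from -1.07 (SE 0.27) to 0.15, mt-Nd4l from -0.86 (SE 0.25) to 0.24 and mt-Atp8 from -1.15 (SE 0.40) to 0.32, none of them called with the term (adjusted p = 0.651, 0.437 and 0.666). The call of mt-Atp8 was also lost without ascending BAPN library 4 or 5 or descending BAPN library 1, 4 or 5 (adjusted p = 0.0510 to 0.0729). By contrast, mt-Nd3, at 0.17 (SE 0.11), was called higher with the term (0.51, adjusted p = 0.0027). Of the 28 nuclear genes of oxidative phosphorylation 0 were higher and 1 lower, and at most 1 higher and 2 lower under the alternatives run.

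The regional differences were then set beside those of the water libraries, which share no library with the BAPN groups. Under water 4243 genes (27.3%) were called. In all, 3229 genes were called under both treatments, 69.8% of the calls under BAPN and 76.1% of those under water, each of them in the same direction and 0 in opposite directions. Of the 4626 genes called under BAPN, 4411 (95.35%) had the same sign under water, and across the 15543 genes the log2 differences had a Pearson correlation of 0.932, which is across genes and not across replicates.

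For the genes described above the values lay side by side. Hoxa5 was at 2.74 under BAPN and 2.35 (SE 0.10) under water, Pax1 at 7.21 and 6.12 (SE 0.26), Gata4 at -8.36 and -8.50 (SE 0.22), and Hand2 at -5.74 and -6.38 (SE 0.13). Eln was at 1.03 under BAPN and 0.85 (SE 0.067) under water, Lox at 0.65 and 0.65 (SE 0.051), Col1a1 at 0.89 and 0.68 (SE 0.057), and Tnc at 2.07 and 1.97 (SE 0.066). Within the water libraries of the higher set (2 ascending and 3 descending) Eln differed by 0.85 (SE 0.061), Lox by 0.70 (SE 0.073) and Hoxa5 by 2.36 (SE 0.17), and within those of the lower set (3 ascending and 2 descending) by 0.91 (SE 0.046), 0.60 (SE 0.071) and 2.36 (SE 0.14). No BAPN library enters these values.

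Whether a regional difference changed with BAPN was asked by the difference of the differences. By edgeR's quasi-likelihood test 0 genes were called, with a smallest adjusted p of 0.216 and a median SE of 0.124, and 1070 genes (6.88%) had an unadjusted p under 0.05. DESeq2 called 14 and limma-voom 0. The count was 16 without descending water library 4, 1 without descending BAPN library 5 and 41 without a filter on low counts. The 5 genes with the smallest p were Fndc5, Gm10222, Rpl10a-ps1, Gm10221 and Crim1. Fndc5, the precursor of irisin, was at 14.5, 12.2, 13.4, 17.4 and 13.7 CPM in ascending and at 2.58, 3.75, 2.23, 3.21 and 3.29 CPM in descending BAPN libraries. Under water it was at 11.7 to 19.4 and 5.71 to 10.6 CPM, so its log2 difference of -2.24 (SE 0.18) stood against -0.98 (SE 0.16) under water, a difference of -1.25 (SE 0.24, adjusted p = 0.216). Crim1, a membrane protein that binds BMPs, was lower in the descending aorta by -0.27 (SE 0.047) under BAPN and by -0.58 (SE 0.048) under water (difference 0.31, SE 0.067, adjusted p = 0.216). The predicted genes Gm10222 and Gm10221 and the pseudogene Rpl10a-ps1 were lower under BAPN (-1.50, -1.66 and -1.39), were not called under water, and were not called under BAPN with the set term (adjusted p = 0.82, 0.33 and 0.19).

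**Figure D5:**
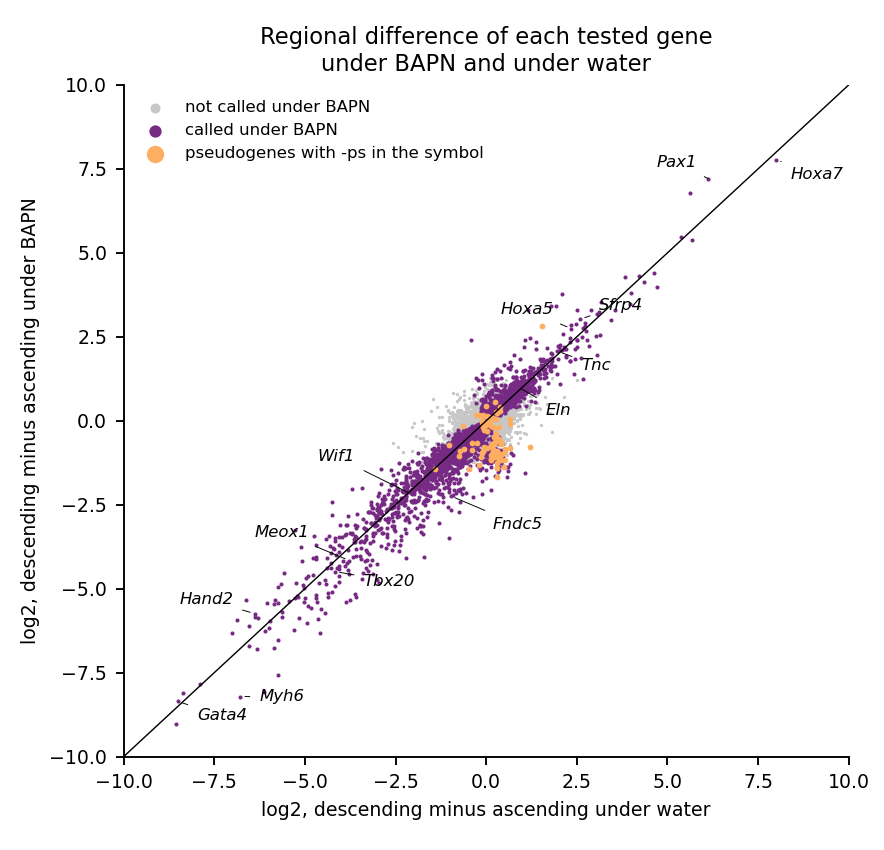
Log2 difference, descending minus ascending aorta, under BAPN (vertical axis) against that under water (horizontal axis) for the 15404 tested genes with at least 4 counts in every group, with a line of equal values. Purple points were called under BAPN, grey points were not, and orange points are 89 pseudogenes with -ps in the symbol. Most points lie along the line from Gata4 and Myh6 to Pax1 and Hoxa7, while many orange points lie below it.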

How the data were processed

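RNA was taken with a kit for fibrous tissue and 1 µg of total RNA went into each library, per the labels' protocols. The authors deposited unnormalized read counts for 54532 Ensembl genes, and the 20 files of single libraries equal the series table. The submitters' processing notes name fastp, STAR 2.5, HTSeq 0.6.1 and the mm10 build; settings, strand and annotation are not given in the sources used here. Symbols come from GENCODE M21 (54495 IDs matched), and 82 of 243 genes named in the text overlap exons of another gene there, 70 on the opposite strand, so that reads of such partners cannot be told apart.

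Groups were read from the titles. Genes were kept by filterByExpr (minimum count 10, minimum total 15) and libraries scaled by TMM. One edgeR 4.0.16 quasi-likelihood model (R 4.3.3) with 4 groups left 16 residual degrees of freedom. CPM use the scaled library sizes. The members, lists and sets of libraries were chosen with earlier results of these data known. Named by rule were the 10 called genes with the largest difference in each direction among those of at least 5 CPM (without predicted genes, pseudogenes or receptor segments), of each list up to 6 members with the smallest p (all members of lists of up to 12 and of the Hox and transcription factor lists), 11 matrix and contractile genes, the 5 most abundant called genes in each direction, and the 5 with the smallest p for the difference of differences; not all of these are printed, and some genes are not reported here. For a group at 0 counts the fold is a lower bound, taken against 3 counts summed over that group; for 1 to 3 counts the ratio carries an exact 95% interval. Alternatives were RLE and upper-quartile scaling, no filter and a stricter one (1 CPM in 5 libraries), DESeq2 1.42.0, limma-voom 3.58.1, the BAPN libraries alone, a replicate block, a size threshold, genes of other tissues left out, the set term and each library left out. The model was tested on simulated counts of 15284 genes, with 13 false calls of 197. These counts held no effect of the pseudogene sets, so false calls may be more frequent in the real libraries.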

Additional observations from a re-analysis of the deposited data

Results flagged for a closer look

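In a group of 5 libraries a value was taken to stand apart when its gap to the nearest library exceeded 0.71 of the group's range (Dixon's 95% value). Chance gives about 1 in 20 groups where values are normally distributed. That rate does not hold for genes with few reads, such as Hoxb6 and Pax1 in the ascending libraries. Of 90 groups examined (genes whose level is printed by library, and 13 marker sums), 4 passed. Ucp1 was at 25.5 CPM in ascending BAPN library 4, and the other 4 ascending libraries were at 0.418 to 2.12 CPM. Pax1 was at 0.386 CPM in the same library, at most 0.108 CPM in the other ascending ones. Hoxb6 was at 0.122 CPM in ascending BAPN library 2 and at 0 in the other 4. The summed endothelial level was 2410.2 CPM in descending BAPN library 3. Over all 415 genes covered by the naming rule, 64 of 830 groups (7.71%) stood apart, 14 of them through ascending BAPN library 4 and 10 through descending BAPN library 2.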

How the results depend on the processing

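The count of 4626 called genes was 4203 to 4910 under the other scalings, filters and tools, the 10 BAPN libraries alone, genes of other tissues left out and the replicate block. It was 2755 with the term for the pseudogene sets and 721 when a log2 difference of 1 was the null, which also replaces the 1292 calls of at least 2-fold and asks for more by construction. Leaving out single libraries gave 4267 to 4704 calls, and 1291 to 1344 of at least 2-fold. The split by direction moved with the scaling: against 2206 higher and 2420 lower in the main fit, upper-quartile scaling gave 1879 and 2631. For the difference of the regional differences, with 0 calls, single libraries gave 0 to 16, no filter on low counts 41, DESeq2 14 and the replicate block 20; the cause was not tested. Of 243 genes named in the text, 17 lost their call with the set term at the same direction, 3 more lost it and turned direction (mt-Atp6 to 0.15, mt-Atp8 to 0.32, mt-Nd4l to 0.24) and 1 was gained. Under the other alternatives run, no called gene among them turned direction. Against the size threshold 123 of the called ones lost their call.

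Ascending and descending libraries with the same number correlated by 0.064 to 0.106 under BAPN and by -0.048 to 0.104 under water. Those with different numbers reached at most 0.0353 under BAPN and 0.1344 under water. The labels do not name pairs, and the main fit does not take the numbers as pairs. As a hint from the data, each BAPN library correlated best with its own number. With the replicate block, 4910 genes were called, among them 7 clock genes higher and 5 lower and 5 macrophage genes lower.

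Depth limits the lowest genes: where a group held 0 to 3 counts, bounds and intervals cover counting error only. In simulated data the fit recovered 72% of genes changed 1.25-fold and 96% of those changed 1.5-fold, so smaller differences can be missed. The changed genes had a mean of at least 5 CPM, and every gene followed the fitted trend of the spread. No effect of the pseudogene sets was simulated, so recovery in the real libraries may be lower.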

Other observations

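Marker lists of other vascular cell types also held genes that differed between the regions, where 14.2% of all genes tested were called higher and 15.6% lower. The pericyte list holds Abcc9, Kcnj8 and Notch3, which are described above with smooth muscle, so it is not particular to pericytes. Of 20 endothelial genes 7 were called higher and 5 lower in the descending aorta under BAPN, with summed levels of 1626.3 to 1946.6 CPM in ascending and 2035.2 to 2410.2 CPM in descending libraries. Vwf, the von Willebrand factor, was at 249, 199.6, 251, 270.3 and 203 CPM against 429, 395, 504, 402 and 418 CPM (log2 0.87, SE 0.10), and the arterial factor Sox17 was higher too (1.29, SE 0.10). Among the members called lower, the VEGF receptor Kdr was at 42.8, 39.1, 32.8, 35.2 and 32.2 CPM in the ascending and at 4.37, 6.38, 6.09, 8.78 and 2.81 CPM in the descending libraries (-2.70, SE 0.18), and Emcn (-2.39, SE 0.14), Flt1 (-1.18, SE 0.11) and Cldn5 (-0.84, SE 0.072) were lower with it. Lymphatic genes had 6 of 8 lower and 0 higher (15.6% and 14.2% of all genes tested), among them the lymphatic master factor Prox1 (-5.13, SE 0.26). Their sums were 276.5 to 304.5 against 178.6 to 206.5 CPM, with Ccl21a at 0 in both regions. Any member that passed the filter only through its ascending counts had to differ. Pericyte genes had 7 higher and 1 lower of 11 (4 and 1 with the set term), with sums of 1399 to 1586.9 against 1908.8 to 2010.6 CPM. Among them Rgs5, a regulator of G protein signalling, was higher (0.99, SE 0.054) and Cox4i2, a subunit of cytochrome oxidase, lower (-0.97, SE 0.14).

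Melanocyte genes had 5 lower and 1 higher of 7 (3 lower under the stricter filter or with the 10 BAPN libraries alone, which test fewer genes). Of the 7, 3 held 0 to 3 counts in a region, and members that passed the filter only through their ascending counts had to differ. Dct, Tyrp1 and the members Slc45a2, Oca2 and Mc1r, which did not pass the filter, were at 0 in the descending BAPN libraries. Tyrp1, a pigment enzyme, was at least 133-fold lower, whereas Mitf, which other cells also use, was higher (0.48, SE 0.078). Schwann cell genes had 8 lower and 0 higher of 16 (15.6% and 14.2% of all genes tested), among them the myelin genes Mbp (-1.42, SE 0.14) and Mal (-1.97, SE 0.15). Adventitial fibroblast genes split, with 8 in each direction of 20, and their sum was lower in the descending libraries (7043.6 to 8065.1 CPM against 9265.3 to 10076.3). Pdgfrl (0.78, SE 0.057) and Serpinf1 (0.49, SE 0.045) were higher and Gsn, the actin-severing gelsolin, lower (-0.62, SE 0.053). Of 23 macrophage genes 2 were called higher and 1 lower, a smaller share than the 29.8% of all genes tested, with overlapping sums (784.2 to 992.9 against 698.5 to 1253.8 CPM). With the other scalings, filters and tools and the 10 BAPN libraries alone 2 to 4 were lower, and 6 were lower without descending BAPN library 2, which held the highest sum. The scavenger receptor Cd163 was higher (0.50, SE 0.11), and the chemokine receptor Cx3cr1, at 10.7, 10.8, 9.20, 11.5 and 9.52 CPM against 6.00, 5.18, 3.34, 3.85 and 3.19 CPM, was lower (-1.27, SE 0.16).

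Brown fat genes had 5 higher and 2 lower of 12. Ucp1, the uncoupling protein of brown fat, was at 0.756, 0.977, 0.418, 25.5 and 2.12 CPM in the ascending and at 33.5, 88.9, 45.1, 97.4 and 33.9 CPM in the descending libraries (3.31, SE 0.70; 5.84 without ascending BAPN library 4), and the summed levels of the list overlapped (150.2 to 254.1 against 182.7 to 354.6 CPM).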
